A study of Danio rerio with 4 samples.

Results

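The library labelled UAS:Nr2f5 was set against the sox10:Gal4 control library in zebrafish (Danio rerio) pharyngeal arch cells at the 36 hours post-fertilization (hpf) stage. Both libraries were chosen by their labels. They are 2 of the 4 RNA-seq libraries of the series, and all genes were described. Of the 31953 genes listed, 11391 averaged at least 1 RPM across all 4 libraries and entered the counts below. RPM, the unit used throughout, counts a gene's reads in each 1000000 sequenced and is not divided by gene length, so a level is compared between libraries and never between genes.

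The UAS:Nr2f5 library came from 84 embryos carrying sox10:Gal4 and UAS:Nr2f5 (56866 cells), and the control library from 69 embryos carrying sox10:Gal4 alone (86517 cells). The other 2 libraries of the series came from embryos mutant for nr2f2 and nr2f5, picked out by ocular coloboma and called mutant 1 and mutant 2 here, and they serve below as further libraries of the same sorted cells. Both Gal4 groups carried the driver and were genotyped from biopsies at 24 hpf, which the labels do not state for the mutants. Every library was made from cells sorted for fli1a:GFP and sox10:DsRed together, and all embryos were kept at 28.5 °C to 27 hpf and at 22 °C after that. Embryos were pooled, and there was 1 library on each side, so this comparison has no p-value resting on its own replicates. The only p-values, in the closing section, borrow the spread of the 2 mutant libraries. They do not measure the spread within either group compared here. Fold differences carry exact Clopper-Pearson 95% intervals on the reads that the values imply. These intervals cover counting error only, not the spread between clutches, sorts or library preparations.

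Nr2f proteins (COUP-TFs) are orphan nuclear receptors that bind DNA and mostly act as repressors. In the zebrafish face, neural crest cells of the foremost arches build the upper jaw, the lower jaw and their hyoid supports. Endothelin and Bmp signals switch on Dlx genes and Hand2 ventrally, where the lower jaw forms, while Notch signalling and Nr2f genes mark the dorsal region of the upper jaw. In the Gal4/UAS system, the sox10 promoter drives the yeast activator Gal4 in neural crest derivatives, and Gal4 in turn switches on the gene placed behind its UAS sites. The sox10 promoter is active across the neural crest and in the otic placode, so the driver is not limited to the jaw.

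The nr2f5 gene was read first, because it checks the label. It stood at 30.3 RPM in the library labelled UAS:Nr2f5, at 12.2 and 14.7 RPM in mutant 1 and mutant 2, and at 28.8 RPM in the control. The ratio of the library labelled UAS:Nr2f5 to the control was 1.05, with a counting interval of 0.920 to 1.199. The extra Nr2f5 is therefore not seen at the level of that gene, and it is not known whether transgene reads would be assigned to it. Each direction below rests on the label. Of the 6 Nr2f genes measured, 0 were 2-fold apart in either direction, where 16% of all genes were. So few genes cannot show whether the family departs from that share. Of the 6, 2 lay above the control and 4 below it. The 4 were nr2f6b, 1.68-fold lower (1.29 to 2.21), nr2f1b, 1.64-fold (1.395 to 1.93), nr2f2, 1.47-fold (1.29 to 1.68), and nr2f1a, 1.13-fold (1.02 to 1.27).

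The library labelled UAS:Nr2f5 stood apart from all of the other 3 libraries, and since it is the only one of its group no result can be given without it. At a log2(RPM + 1) scale and a threshold of 2-fold, 1818 of 11391 genes (16%) differed between it and the control, 773 higher (6.79%) and 1045 lower (9.17%). The median gene differed by −0.11. The filter counts this library too, so a gene can pass it by being high there. Among the 10702 genes that reach 1 RPM in the mean of the other 3 libraries, 435 were higher and 1045 lower. By the same 2-fold rule over the 11391 genes, mutant 1 and mutant 2 differed in 326 (2.86%). The library labelled UAS:Nr2f5 was at least 2-fold above each of the other 3 libraries in 508 genes (4.46%) and at least 2-fold below each of them in 683 (6%). The same counts were 5 and 22 for mutant 1, 13 and 75 for mutant 2, and 20 and 10 for the control. It was also the shallowest library, with values that imply 1498321 reads in genes against 3590905 to 5286229 in the others, so 1 read was worth 0.0987 RPM in it and 0.0334 RPM in the control.

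**Figure D1:**
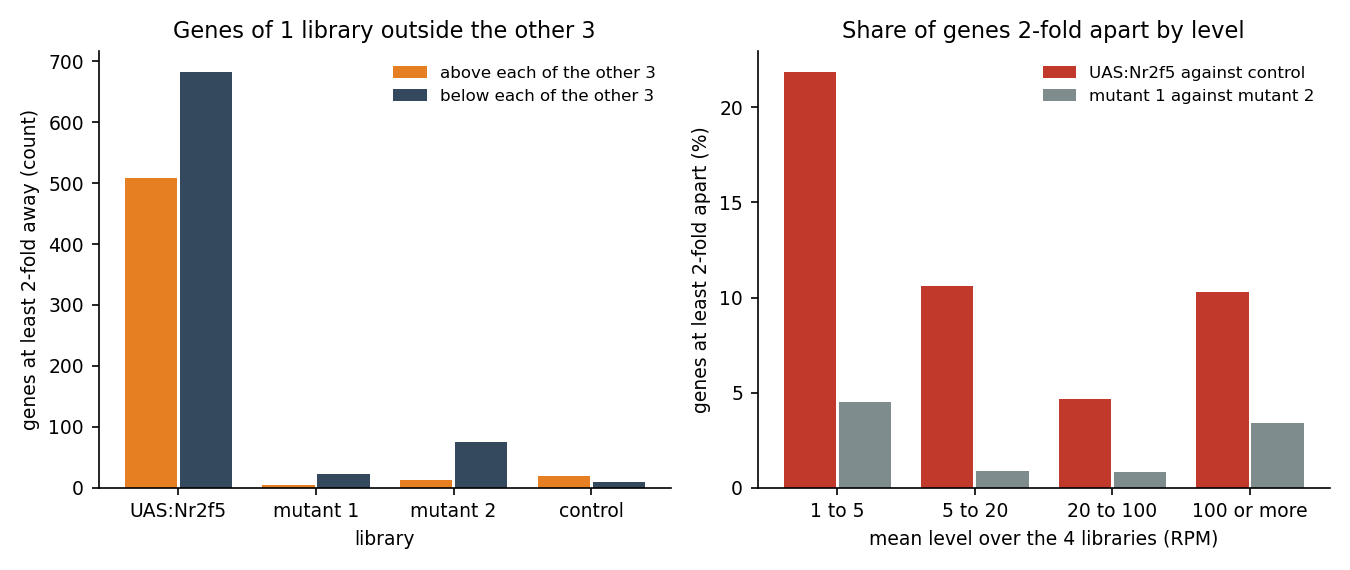
Left, genes (count) in which 1 library lay at least 2-fold above (orange) or below (dark blue) each of the other 3, on the log2(RPM + 1) scale. Right, the share of genes (%) at least 2-fold apart between UAS:Nr2f5 and control (red) and in mutant 1 against mutant 2 (grey), by mean level over the 4 libraries. The library labelled UAS:Nr2f5 has 508 and 683 genes outside the others, and its share of 2-fold differences exceeds that of the mutant pair at every level. The filter counts all 4 libraries, so a gene can pass it through the library in which it is high.

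The share of genes 2-fold apart depended on their level. Between 1 and 5 RPM, 21.9% of 6097 genes were 2-fold apart between the library labelled UAS:Nr2f5 and the control, and 4.51% between the mutants. Between 20 and 100 RPM the shares were 4.66% and 0.855% of 1287 genes. Among the 175 genes at 100 RPM or more they were 10.3% and 3.43%, and of the 18 genes behind the 10.3%, 17 were higher and 1 was lower in the library labelled UAS:Nr2f5. When the control was thinned to the read total of that library, 150 of 157 named genes that were 2-fold apart still were. Thinning leaves the counting noise of the library labelled UAS:Nr2f5 as it was, and many named genes were picked for a large difference. What depth adds to the differences was thus not tested.

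The arch markers of the sort were checked next. Of 5 markers of arch neural crest, 0 were absent in any library. The endothelial and arch gene fli1a, whose promoter drives the sorted GFP, stood at 17.97 RPM in the library labelled UAS:Nr2f5, 51.5 and 48.1 RPM in the mutants and 38.3 RPM in the control, 2.13-fold lower than the control (1.82 to 2.51). The mesenchymal bHLH gene twist1a was at 15.11 RPM, against 35.4 and 41.6 RPM in the mutants and 27.8 RPM in the control. The crest factor sox10 was at 5.73 RPM, against 17.4 and 24.9 RPM in the mutants and 8.72 RPM in the control, while the mesenchymal homeobox gene prrx1a was at 27.0 RPM, against 48.9 and 50.0 RPM in the mutants and 27.2 RPM in the control. The library labelled UAS:Nr2f5 was thus the lowest of the 4 for each of these markers, by a margin that was close to nothing for prrx1a. In bulk samples, fewer cells of a type and less RNA per cell cannot be told apart.

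The Dlx homeobox genes, which give arch cells their position along the dorsoventral axis, were the list that lay furthest below the control. Of 8 listed, 7 passed the filter, and 6 of these were at least 2-fold lower in the library labelled UAS:Nr2f5 than in the control, against 9.17% of all genes. The same 6 were at least 2-fold below each of the other 3 libraries, against 6% of all genes. The median log2 difference was −2.40, and −2.02 with genes listed at 0 set to a limit of 3 reads, worth 0.296 RPM, beside −0.11 over all genes.

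In the intermediate and ventral domain, dlx5a was at 2.37 RPM in the library labelled UAS:Nr2f5, 36.2 and 28.1 RPM in the mutants and 18.9 RPM in the control, 7.96-fold lower than the control (5.30 to 12.5). Its neighbour in the genome, dlx6a, was listed at 0, against 14.4 and 12.9 RPM in the mutants and 4.27 RPM in the control. Set against the 3-read limit this is at least 14.4-fold lower, and the counting interval begins at 11.6-fold. For both, the mutants were highest, the control lay between, and the library labelled UAS:Nr2f5 was far under all 3. dlx3b was at 2.27 RPM, against 16.6 and 13.2 RPM in the mutants and 11.6 RPM in the control, 5.09-fold lower (3.34 to 8.13). Its neighbour dlx4b was listed at 0, against 10.3 and 5.82 RPM in the mutants and 6.98 RPM in the control, which against that limit is at least 23.6-fold lower, with a counting interval from 18.99-fold. dlx4a was at 1.78 RPM, against 20.8 and 18.3 RPM in the mutants and 15.4 RPM in the control, 8.66-fold lower (5.42 to 14.7). In dlx3b and dlx4a the control and the mutants lay close together, and in dlx4b the mutants were further apart with the control between them. In all 3 genes the library labelled UAS:Nr2f5 alone was low.

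The Dlx genes expressed throughout the arch differed less. dlx2a was at 8.10 RPM in the library labelled UAS:Nr2f5, 30.4 and 24.6 RPM in the mutants and 22.4 RPM in the control, 2.77-fold lower (2.20 to 3.53). Its neighbour dlx1a was at 5.33 RPM, against 11.8 and 11.6 RPM in the mutants and 11.2 RPM in the control, a log2 difference of −0.94. That made dlx1a the only tested Dlx gene under 2-fold on the log2(RPM + 1) scale, although the other 3 libraries all lay above it. dlx2b did not pass the filter, with 0.987 RPM in the library labelled UAS:Nr2f5, 0.144 and 1.01 RPM in the mutants and 0.134 RPM in the control. The RefSeq table of zebrafish genes (GRCz12tu) places dlx1a beside dlx2a, dlx3b beside dlx4b and dlx5a beside dlx6a, and in each of these pairs both members were lower in the library labelled UAS:Nr2f5 than in any other library.

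Zeros at such levels were rare. Of 6129 genes at 4 RPM or more in the control, 7 were listed at 0 in the library labelled UAS:Nr2f5, and dlx4b and dlx6a were among the 7, with the kinetochore gene spc25, the hatching enzyme gene he1a, pigq, eva1ba and a row whose symbol was deposited as a number. In the other direction, 2 of 6157 genes were listed at 0 in the control, the lens crystallin gene crygm2d3 and a copy of THEM6. In mutant 1 against mutant 2 it was 1 of 6089 genes, and in mutant 2 against mutant 1 it was 1 of 6099.

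**Figure D2:**
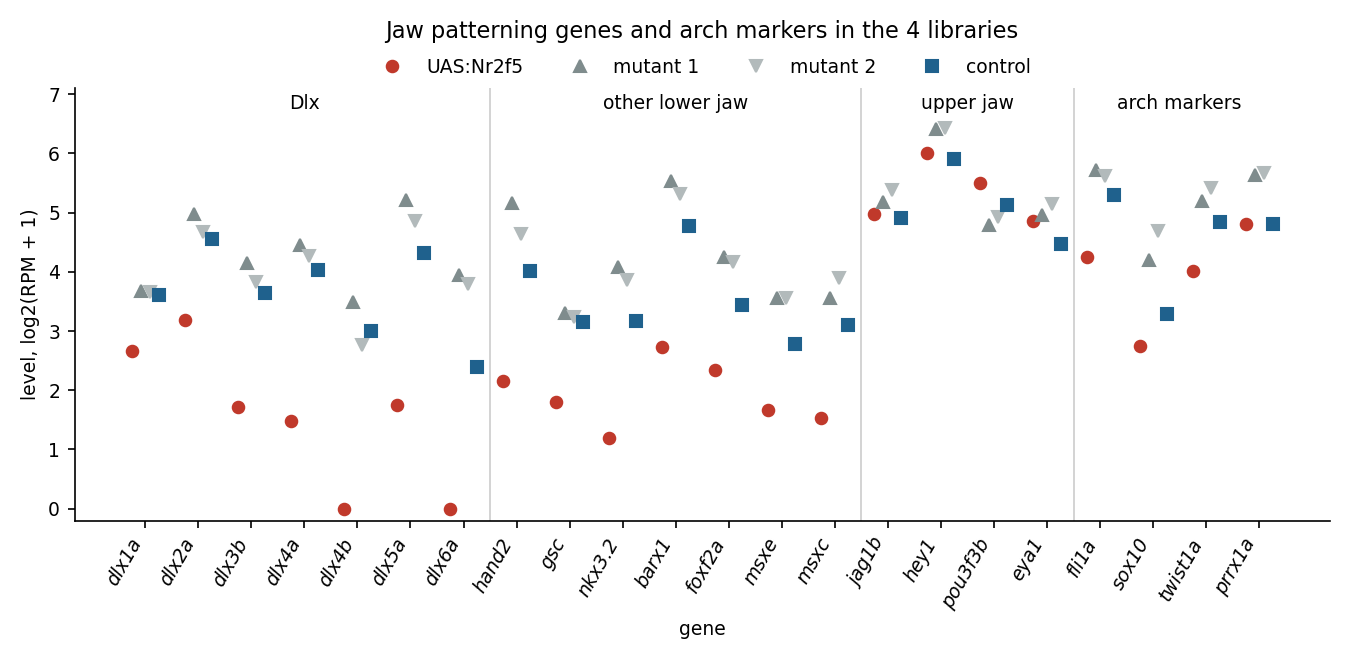
Levels, as log2(RPM + 1), of Dlx genes, other lower jaw regulators, upper jaw genes and arch neural crest markers in the 4 libraries (UAS:Nr2f5 red circles, mutant 1 and mutant 2 grey triangles, control blue squares; 1 library each, so there are no error bars). The red circles lie under the other 3 libraries for the Dlx and lower jaw genes drawn and for the markers, with dlx4b and dlx6a at 0, and inside or above the range of the others for jag1b, hey1, pou3f3b and eya1. Of the upper jaw genes not drawn, her6, notch2 and pou3f3a were among those under all of the other 3 libraries.

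Lower jaw regulators outside the Dlx family were also lower as a list, by less. Of 21 tested, 8 were at least 2-fold lower than the control and 0 were higher, against 9.17% and 6.79% of all genes, and all 8 lay at least 2-fold below each of the other 3 libraries. The median log2 difference was −0.71. The bHLH factor gene hand2, a target of Endothelin signalling that specifies the ventral arch, was at 3.46 RPM in the library labelled UAS:Nr2f5, 34.8 and 23.8 RPM in the mutants and 15.2 RPM in the control, 4.39-fold lower (3.11 to 6.38). nkx3.2, the homeobox gene of the jaw joint, was at 1.28 RPM, against 15.95 and 13.6 RPM in the mutants and 8.05 RPM in the control, 6.27-fold lower (3.60 to 11.9). As with dlx5a, both genes were highest in the mutants, with the control between.

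barx1, a homeobox gene of skeletal precursors of the ventral arch, was at 5.63 RPM in the library labelled UAS:Nr2f5, 45.1 and 38.9 RPM in the mutants and 26.3 RPM in the control, 4.67-fold lower (3.57 to 6.22). The homeobox gene gsc, which marks parts of both jaws, was at 2.47 RPM, against 8.88 and 8.47 RPM in the mutants and 7.91 RPM in the control, 3.21-fold lower (2.12 to 5.06). The other 3 libraries lay close together for gsc and were spread for barx1. Among the Msx homeobox genes, which Bmp signalling induces in the arch, msxe was at 2.17 RPM, against 10.8 RPM in each mutant and 5.88 RPM in the control, and msxc at 1.88 RPM, against 10.8 and 13.8 RPM in the mutants and 7.55 RPM in the control. The Msx genes did not share 1 direction, since msxb was at 3.95 RPM against 5.44 RPM in the control, and msxd at 6.52 RPM against 3.14 RPM.

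Among forkhead genes of the arch, foxf2a was at 4.05 RPM in the library labelled UAS:Nr2f5, 17.9 and 17.0 RPM in the mutants and 9.85 RPM in the control, 2.43-fold lower (1.75 to 3.46). foxc1b was at 21.5 RPM, against 58.2 and 47.0 RPM in the mutants and 42.4 RPM in the control, and foxd1 at 9.87 RPM, against 21.4 and 22.6 RPM in the mutants and 19.8 RPM in the control. Both were lower than in every other library, and both stayed just short of 2-fold on the log2(RPM + 1) scale, at −0.95 and −0.94. The members closest to the control were gata3, at 10.9 against 11.6 RPM, osr1, at 3.26 against 2.97 RPM, and PRDM16, at 28.5 against 32.0 RPM.

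On the log2(RPM + 1) scale, upper jaw genes showed no 2-fold difference in either direction in 15 of 15 tested, where 16% of all genes were 2-fold apart. That share was 21.9% between 1 and 5 RPM, 10.6% between 5 and 20 RPM, 4.66% between 20 and 100 RPM and 10.3% above that. Most of the 15 averaged over 5 RPM, and they were not tested against genes of their own levels. Their median was −0.06, which became 0.05 with the early neural crest scaling and 0.11 with the median-ratio scaling described below. jag1b, the Notch ligand of the dorsal arch, was at 30.6 RPM in the library labelled UAS:Nr2f5, 35.3 and 40.6 RPM in the mutants and 28.9 RPM in the control, a ratio of 1.06 (0.927 to 1.21). Its target hey1 was at 63.5 RPM, against 83.9 and 85.1 RPM in the mutants and 59.1 RPM in the control. Both sat beside the control and under the mutants. Of the 15 tested, 6 lay above the control and 9 below it, and some were lowest in the library labelled UAS:Nr2f5. Among these, her6 was at 107 RPM, against 220 and 245 RPM in the mutants and 163 RPM in the control. notch2 was at 61.9 RPM, against 170 and 161 RPM in the mutants and 98.8 RPM in the control. The POU factor gene pou3f3b was at 44.2 RPM, against 26.6 and 29.2 RPM in the mutants and 33.9 RPM in the control, 1.31-fold higher (1.17 to 1.46), and it was the tested upper jaw gene furthest above all of the other 3 libraries. irx7, an Iroquois gene, was lowest relative to the control, at 0.691 RPM against 1.52 and 1.81 RPM in the mutants and 2.20 RPM in the control, where 0.691 RPM is a level of 7 reads. In plain RPM it was 3.19-fold lower than the control (1.46 to 8.24). It stayed under 2-fold, at −0.92, only on the log2(RPM + 1) scale, which shrinks differences at low levels. The difference between the lists themselves was not tested.

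Endothelin pathway genes, which act upstream of the Dlx genes, showed no 2-fold difference in the values as deposited. Of 8 tested, 0 were 2-fold apart, against 16% of all genes and 10.6% of genes between 5 and 20 RPM, where most of the 8 averaged. Their median was −0.12. The median was 0.04 with median-ratio scaling and 0.61 with arch marker scaling, which put 2 of the 8 at least 2-fold higher. Over all genes the medians were 0.03 and 0.60, and arch marker scaling put 3105 of 11391 genes at least 2-fold higher. The list thus lay near all genes under both scalings. The receptor gene ednraa was at 21.3 RPM in the library labelled UAS:Nr2f5, 19.1 and 20.5 RPM in the mutants and 19.7 RPM in the control, a ratio of 1.08 (0.920 to 1.26). furina, which encodes a protease that matures the ligand, was at 22.4 RPM, against 17.3 and 21.6 RPM in the mutants and 16.1 RPM in the control. For ednraa the 4 libraries could hardly be separated, and for furina the control was the lowest. The transcription factor gene mef2ca, an effector of the pathway, was at 4.25 RPM, against 6.07 and 4.76 RPM in the mutants and 6.85 RPM in the control, and the phospholipase gene plcb3 at 5.33 RPM, against 9.57 and 10.3 RPM in the mutants and 7.38 RPM in the control. The ligand gene edn1, which is made mainly outside the crest, was listed at 0 in the library labelled UAS:Nr2f5, in mutant 2 and in the control.

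How far the jaw lists lie from the control depends on how the libraries are scaled, and the arch markers move with them. A median-ratio scaling raised the library labelled UAS:Nr2f5 by a factor of 1.13 and an early neural crest scaling by 1.08, which shifted the median gene by 0.14 and 0.09. A scaling added after seeing the data set the median of the 5 arch markers, dlx2a among them, to the control and multiplied that library by 1.79, a shift of 0.71. Under it the Dlx median was −1.92 with 5 of 7 genes still at least 2-fold lower. The median of the other lower jaw regulators was −0.12 with 3 of 21 at least 2-fold lower, and that of the upper jaw genes was 0.73 with 4 of 15 at least 2-fold higher. Over all genes that scaling gave a median of 0.60, with 3105 of 11391 genes at least 2-fold higher and 449 lower. The upper jaw count was thus near the share of all genes. The share of higher genes among all those 2-fold apart was 42.5% as deposited, 55.1% with median-ratio scaling, 50.4% with early neural crest scaling and 87.4% with arch marker scaling.

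Signalling lists of the arches were set beside the 16% of all genes that were 2-fold apart. Their counts are small, and the differences between the lists were not tested. The counts were 3 higher and 3 lower of 26 for Bmp, 0 and 0 of 18 for Fgf, 0 and 2 of 31 for Wnt, 0 and 2 of 17 for Hedgehog, 0 and 2 of 17 for retinoic acid and 0 and 0 of 21 for Notch. The medians were −0.33, −0.47, −0.32, −0.24, −0.15 and 0.08 in that order, beside −0.11 over all genes. Under arch marker scaling all 6 were above 0, between 0.27 and 0.90, beside 0.60 over all genes. Only the Notch median lay above that of all genes, and it did so in both settings. In the Bmp list, the type I receptor gene bmpr1ba was at 2.47 RPM in the library labelled UAS:Nr2f5, 10.9 and 14.5 RPM in the mutants and 6.68 RPM in the control, 2.71-fold lower (1.78 to 4.28). The secreted Bmp antagonist gene nog2 was at 2.47 RPM, against 11.3 and 11.4 RPM in the mutants and 6.95 RPM in the control. The ligand gene bmp7b stood on the other side of the control, at 6.22 RPM against 2.13 and 3.22 RPM in the mutants and 1.17 RPM in the control, 5.32-fold higher (3.47 to 8.29). Another higher Bmp gene, grem1b, passed the filter through the library labelled UAS:Nr2f5. Counting only the 25 Bmp genes that reach 1 RPM in the other 3 libraries, 2 were higher and 3 lower, against 435 and 1045 of 10702 genes in all.

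Among Wnt genes, nkd2a, an intracellular inhibitor of the pathway, was at 0.395 RPM in the library labelled UAS:Nr2f5, 7.47 and 7.41 RPM in the mutants and 4.14 RPM in the control, 10.5-fold lower (3.99 to 39.1). rspo3, a secreted enhancer of Wnt signalling, was at 1.28 RPM, against 4.93 and 3.36 RPM in the mutants and 3.61 RPM in the control. In the Hedgehog list, gas1b, which encodes a co-receptor at the cell surface, was at 1.28 RPM, against 7.99 and 11.2 RPM in the mutants and 8.42 RPM in the control, 6.56-fold lower (3.77 to 12.5). The ciliary receptor gene gpr161 was at 0.0987 RPM, a level of 1 read, against 6.78 and 8.29 RPM in the mutants and 4.84 RPM in the control. The library labelled UAS:Nr2f5 was the lowest of the 4 for each of these. In the retinoic acid list, crabp2b, which encodes a carrier of retinoic acid, was at 8.99 RPM, against 29.1 and 30.6 RPM in the mutants and 19.4 RPM in the control, and the receptor gene rargb at 4.84 RPM, against 19.6 and 15.4 RPM in the mutants and 8.95 RPM in the control.

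Guidance and adhesion lists were compared with the 9.17% of all genes that were 2-fold lower. The secreted semaphorin gene sema3bl was at 8.89 RPM in the library labelled UAS:Nr2f5, 42.4 and 55.6 RPM in the mutants and 32.5 RPM in the control, 3.66-fold lower (2.94 to 4.59), and sema3fb at 3.06 RPM, against 15.5 and 21.2 RPM in the mutants and 9.25 RPM in the control. Of 33 semaphorin, plexin and neuropilin genes, 4 (12.1%) were 2-fold lower and 1 was higher, and for the 2 named here the mutants were highest. The cadherin gene cdh6 was at 15.5 RPM, against 60.5 and 66.3 RPM in the mutants and 35.7 RPM in the control, 2.31-fold lower (1.95 to 2.74). Of 9 cadherin genes, 2 were higher and 2 lower, against 6.79% and 9.17% of all genes. The epithelial cadherin gene cdh1, also in the epidermis list, was among the higher ones, at 10.1 RPM against 0.661 and 1.41 RPM in the mutants and 4.44 RPM in the control, 2.27-fold higher (1.73 to 2.96). The other, cdh15, passed the filter through the library labelled UAS:Nr2f5. Counting only the 7 cadherin genes that reach 1 RPM in the other 3 libraries, 1 was higher and 2 lower, against 435 and 1045 of 10702 genes in all. Of 22 Eph and ephrin genes, only efna5a (4.55%) was 2-fold apart, at 7.90 RPM against 17.9 and 16.4 RPM in the mutants and 21.3 RPM in the control. For efna5a, unlike cdh6, the control was the highest of the 4 libraries. Among 31 genes of matrix proteases and their inhibitors, 4 (12.9%) were lower and 0 higher, and the membrane metalloproteinase gene mmp14a was at 6.32 RPM, against 20.6 and 20.2 RPM in the mutants and 15.5 RPM in the control.

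General genes of arch mesenchyme were spread around the control, with 3 of 27 (11.1%) lower and 0 higher, against 9.17% and 6.79% of all genes. The median was −0.17, or 0.57 under arch marker scaling, beside −0.11 and 0.60 over all genes. lhx6, a LIM homeobox gene of oral mesenchyme, was at 6.71 RPM in the library labelled UAS:Nr2f5, 24.2 and 19.4 RPM in the mutants and 20.9 RPM in the control, 3.11-fold lower (2.42 to 4.06). The forkhead gene foxp2 was at 0.296 RPM, against 4.02 and 4.76 RPM in the mutants and 3.87 RPM in the control. Of 20 early neural crest genes, 1 was higher and 0 were lower, with a median of −0.11. That 1 gene, the crest regulator foxd3, was at 2.67 RPM, against 2.09 and 2.76 RPM in the mutants and 0.570 RPM in the control, so it was the control that stood apart.

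Skeletal genes lay on both sides of the control. Of 19 cartilage genes, 2 were higher and 2 lower, against 6.79% and 9.17% of all genes, with a median of −0.04. The master regulator of cartilage sox9a was at 21.4 RPM in the library labelled UAS:Nr2f5, 68.5 and 83.0 RPM in the mutants and 44.1 RPM in the control, 2.06-fold lower (1.78 to 2.38), and its partner sox5 was at 43.6 RPM, against 136 and 135 RPM in the mutants and 98.7 RPM in the control. The cartilage collagen gene col11a2 was higher, at 30.0 RPM against 17.9 and 10.9 RPM in the mutants and 13.02 RPM in the control. The regulators were thus highest in the mutants, and the collagen in the library labelled UAS:Nr2f5. In the bone list, 3 of 7 tested (42.9%) were higher and 0 lower, against the same shares of all genes. sp7, the osteoblast transcription factor, was at 6.12 RPM, against 2.67 and 3.62 RPM in the mutants and 1.57 RPM in the control, 3.90-fold higher (2.63 to 5.82). col1a1b, also a collagen of skin and fin, was at 221 RPM, against 34.2 and 35.8 RPM in the mutants and 110 RPM in the control.

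**Figure D3:**
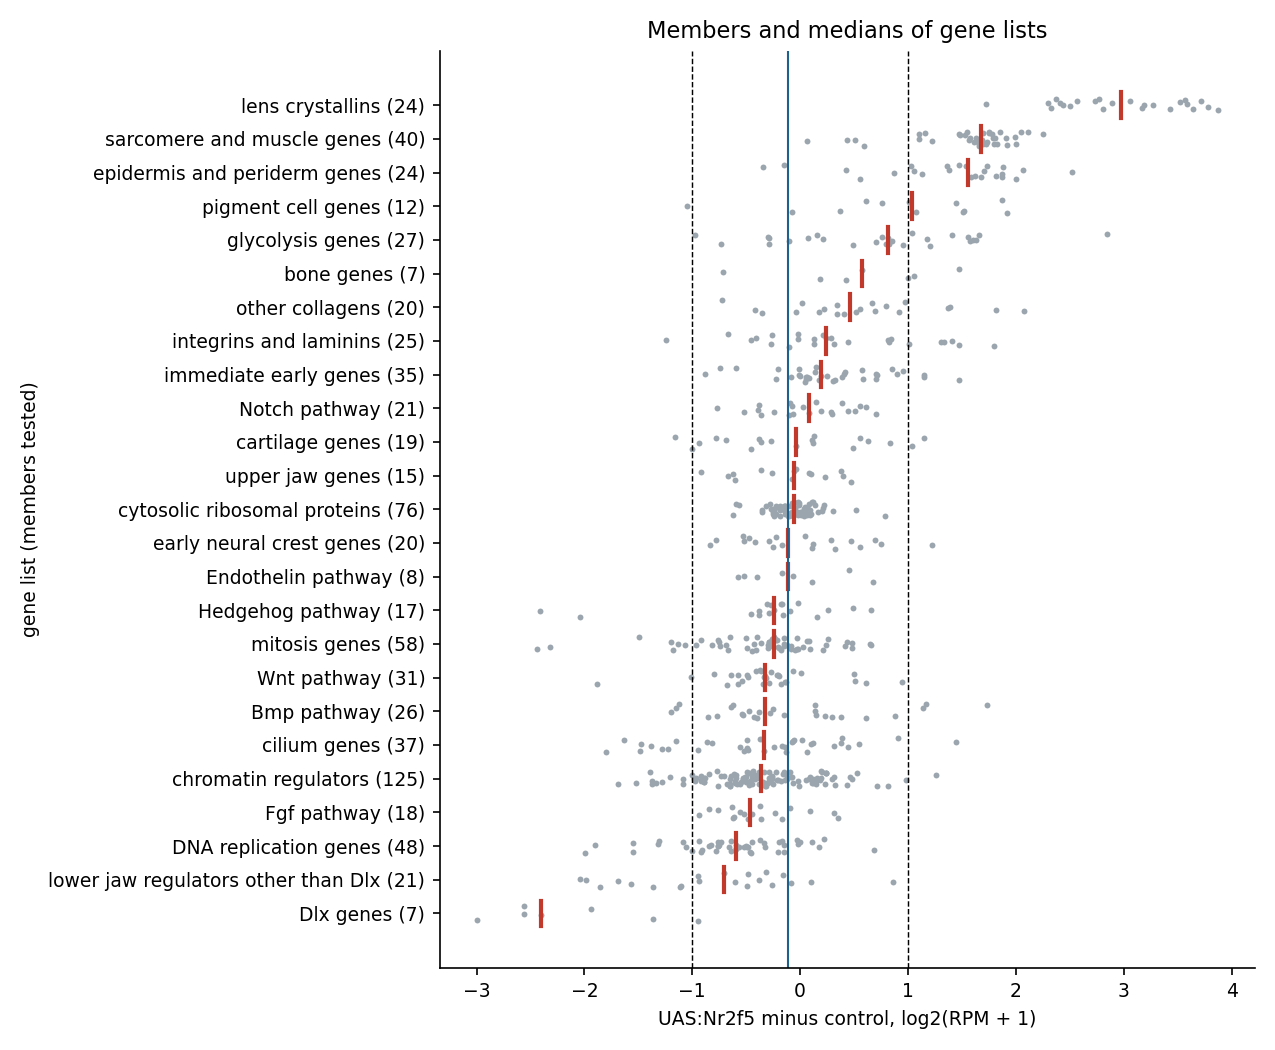
Differences of the library labelled UAS:Nr2f5 minus the control, as log2(RPM + 1), for the tested members (grey points) of 25 gene lists, with the list's median (red bar), the median of all genes (blue line, −0.11) and 2-fold limits (dashed). Lens, muscle, epidermis and pigment lists have medians more than 2-fold above the control, and the Dlx list has a median of −2.40. Without members that passed the filter through the library labelled UAS:Nr2f5, the muscle, epidermis and pigment medians are 1.69, 1.60 and 0.68. Only 3 of the 24 lens crystallins reach 1 RPM in the other 3 libraries. The rest had to be high in the library labelled UAS:Nr2f5, so the lens median is no separate evidence.

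Genes of other cell types were higher in the library labelled UAS:Nr2f5, and made up the top of the difference. Of the 15 genes with the largest positive difference, 12 were lens crystallins. That ranking was limited by a mean that includes the library labelled UAS:Nr2f5, so a gene could enter it by being high there. Most of the 12 lie under 1 RPM in the mean of the other 3 libraries, and several are crygm2d copies whose reads can be split. The ranking is thus no separate evidence of a lens difference. Of 40 tested sarcomere and muscle genes, 36 were at least 2-fold higher and 0 lower (median 1.68). Of 24 tested epidermis and periderm genes, 19 were higher and 0 lower (median 1.56), and of 12 tested pigment cell genes, 7 were higher and 1 lower (median 1.04). All 24 tested lens crystallins were higher, but only 3 of the 57 listed reach 1 RPM in the mean of the other 3 libraries, so 21 of the 24 passed the filter through the library labelled UAS:Nr2f5 and had to be high in it. Counting only genes that reach 1 RPM in the other 3 libraries, 34 of 37 muscle, 18 of 22 epidermis and 3 of 8 pigment genes were higher, the pigment median was 0.68, and of 10702 genes in all 435 were higher and 1045 lower.

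The control also held these transcripts, and the mutants held little of them. The muscle list summed to 9422 RPM in the library labelled UAS:Nr2f5, 106 and 134.1 RPM in the mutants and 2912 RPM in the control. The epidermis list summed to 2737 RPM, against 319 and 269 RPM in the mutants and 1019 RPM in the control, and the lens list to 505 RPM, against 2.59 and 1.31 RPM in the mutants and 33.1 RPM in the control. Together, the 154 genes of the muscle, epidermis, lens and pigment lists held 8.61% of the values of the library labelled UAS:Nr2f5, 0.291% and 0.267% of those of the mutants and 2.68% of those of the control. Their part in the lower values of the jaw genes was not tested.

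**Figure D4:**
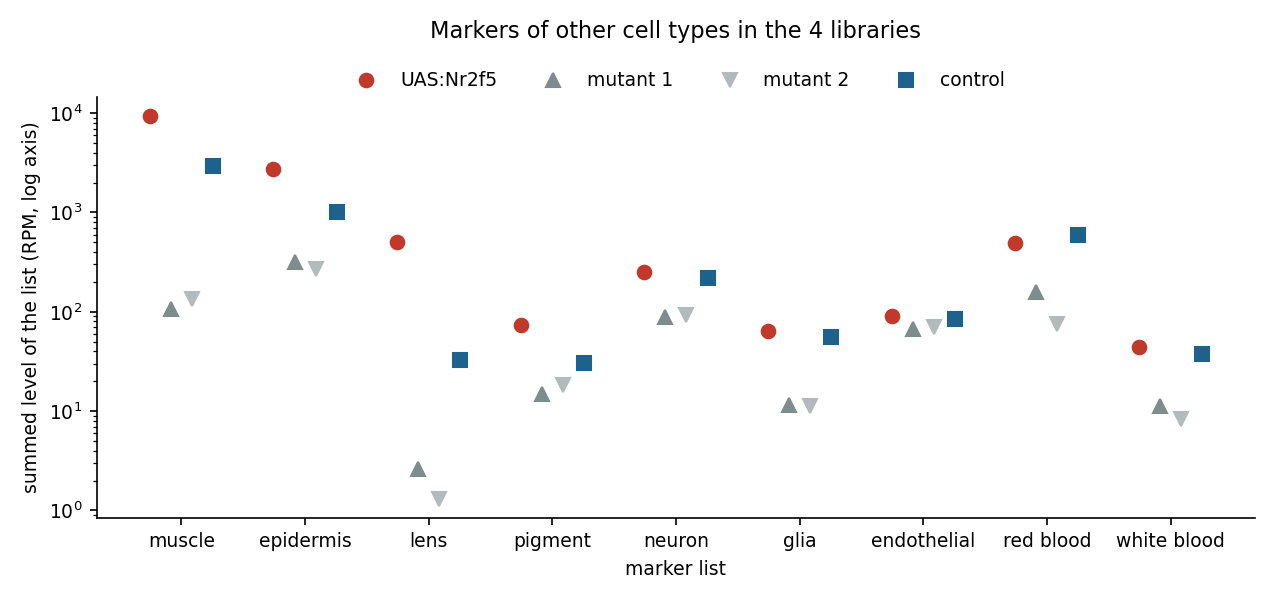
Summed level (RPM, log axis) of marker lists of other cell types in the 4 libraries (UAS:Nr2f5 red circles, mutant 1 and mutant 2 grey triangles, control blue squares; 1 library each, so there are no error bars). Muscle, epidermis, lens and pigment lists are highest in the library labelled UAS:Nr2f5, neuron, glia, endothelial and white blood cell lists are at 1.07 to 1.18 times the control, and the red blood cell list is highest in the control.

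In the muscle list, the calcium buffer gene pvalb2 was at 272 RPM in the library labelled UAS:Nr2f5, 1.90 and 1.59 RPM in the mutants and 56.2 RPM in the control, 4.84-fold higher (4.55 to 5.15). The calcium release channel gene ryr1b was at 62.5 RPM, against 0.575 and 0.309 RPM in the mutants and 14.3 RPM in the control, and the actin gene actc1a at 56.8 RPM, against 0.116 and 1.00 RPM in the mutants and 13.4 RPM in the control. In all 3 the order of the libraries was the same, with the control between the library labelled UAS:Nr2f5 and the mutants. Of 9 factors of head muscle precursors, 1 was higher, namely myod1, which passed the filter through the library labelled UAS:Nr2f5, and 0 of the 7 that reach 1 RPM in the other 3 libraries were. myod1 was at 5.53 RPM against 0.345 and 0 RPM in the mutants and 0.835 RPM in the control.

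In the epidermis list, the keratin gene krt5 was at 50.3 RPM in the library labelled UAS:Nr2f5, 1.84 and 1.68 RPM in the mutants and 12.96 RPM in the control, 3.88-fold higher (3.39 to 4.44). The tight junction gene cldne was at 14.4 RPM, against 0.891 and 0 RPM in the mutants and 2.67 RPM in the control. Genes of epithelial basement membranes were mixed. col7a1, the anchoring fibril collagen, was at 8.59 RPM, against 0.0862 and 0.0441 RPM in the mutants and 1.27 RPM in the control, 6.77-fold higher (4.57 to 10.2), and the integrin gene itga3b at 3.75 RPM, against 0.172 and 0.132 RPM in the mutants and 0.367 RPM in the control. Both col7a1 and itga3b passed the filter through the library labelled UAS:Nr2f5. The laminin gene lamb2 was at 15.01 RPM, against 0.949 and 1.01 RPM in the mutants and 5.34 RPM in the control. Of 25 integrin and laminin genes, 6 were higher and 1 lower, against 6.79% and 9.17% of all genes. Of 20 collagens outside cartilage and bone, 3 (15%) were higher and 0 lower. Counting only genes that reach 1 RPM in the other 3 libraries, 4 of 23 integrin and laminin genes and 1 of 17 collagens were higher, against 435 of 10702 genes in all. Most of the collagen count thus rests on genes that passed the filter through the library labelled UAS:Nr2f5.

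Among lens genes, the beta crystallin gene crybb1 was at 79.9 RPM in the library labelled UAS:Nr2f5, 0.316 and 0.441 RPM in the mutants and 6.04 RPM in the control, 13.2-fold higher (11.2 to 15.6). cryba4 was at 42.5 RPM, against 0.259 and 0.132 RPM in the mutants and 1.97 RPM in the control. The lens membrane protein gene lim2.4 was at 13.4 RPM, against 0 RPM in both mutants and 0.401 RPM in the control. Both cryba4 and lim2.4 passed the filter through the library labelled UAS:Nr2f5. Gamma crystallins of the crygm2d group are near-identical copies whose reads can be split in counting, so their values 1 by 1 are uncertain. The melanin enzyme gene tyr was at 5.83 RPM, against 0.460 and 0.617 RPM in the mutants and 0.868 RPM in the control, and the melanosome gene pmela at 8.29 RPM, against 1.81 and 2.25 RPM in the mutants and 2.24 RPM in the control. Of these, tyr passed the filter through the library labelled UAS:Nr2f5. For pmela the control lay beside the mutants, and the pigment list as a whole summed to 73.1 RPM in the library labelled UAS:Nr2f5, 14.7 and 18.2 RPM in the mutants and 30.3 RPM in the control.

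Markers of other types were mixed. Of 25 neuron genes, 3 were higher and 0 lower (median 0.24), and the list summed to 249 RPM in the library labelled UAS:Nr2f5, 89.2 and 93.1 RPM in the mutants and 217 RPM in the control. The astroglial filament gene gfap was at 10.7 RPM, against 1.01 and 1.28 RPM in the mutants and 15.5 RPM in the control, while erbb3a, a receptor gene of Schwann cell precursors, had 8.59 RPM against 0.23 and 0.22 RPM in the mutants and 1.74 RPM in the control, 4.95-fold higher (3.47 to 7.12). Of 7 glia genes, 1 was higher and 0 lower, and that gene, erbb3a, passed the filter through the library labelled UAS:Nr2f5. Among genes that reach 1 RPM in the other 3 libraries, 0 of 6 glia and 1 of 20 neuron genes were higher, against 435 of 10702 genes in all. Red blood cell genes were lower than the control in 13 of 15 tested, where the median of all genes was −0.11. Of the 15, 1 (6.67%) was 2-fold lower, against 9.17% of all genes, and 8 were 2-fold apart between the mutants. The list median of −0.46 became 0.35 under arch marker scaling, where the median of all genes was 0.60. Of 13 endothelial genes, 3 (23.1%) were higher, against 6.79% of all genes, and 1 was lower. Among the 9 that reach 1 RPM in the other 3 libraries 1 was higher and 1 lower, against 435 and 1045 of 10702 genes in all. The vessel receptor gene kdrl was at 17.9 RPM, against 5.06 and 7.50 RPM in the mutants and 5.81 RPM in the control, 3.08-fold higher (2.48 to 3.81), whereas the vessel cadherin gene cdh5 was at 3.75 RPM, against 1.35 and 1.59 RPM in the mutants and 3.71 RPM in the control.

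**Figure D5:**
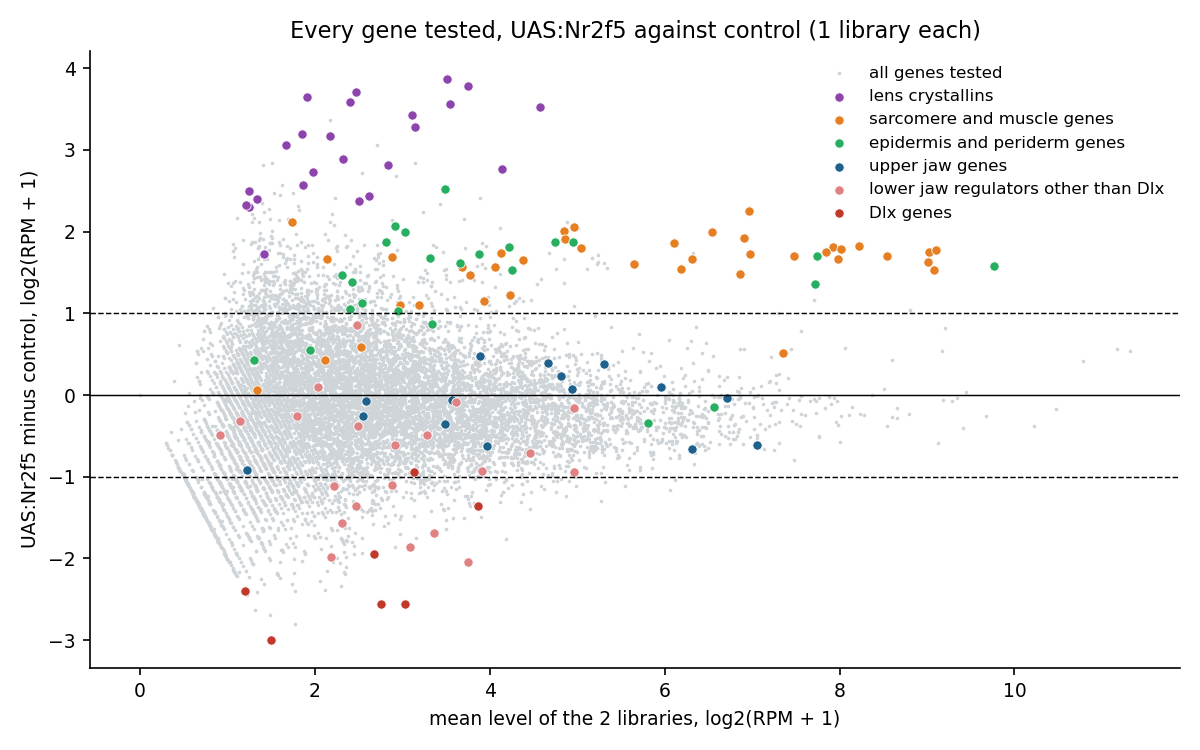
Each tested gene by its mean log2(RPM + 1) in the library labelled UAS:Nr2f5 and the control (horizontal) and its difference, UAS:Nr2f5 minus control, on the same scale (vertical), with 2-fold limits dashed and 6 gene lists in colour. Dlx genes lie at differences down to −3.00, lens crystallins reach 3.87, muscle and epidermis genes lie mostly between 1 and 3 at all levels, and upper jaw genes lie between −0.92 and 0.47.

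Glycolysis genes were higher as a list. Of 76 oxidative phosphorylation genes, 2 were 2-fold higher and 3 lower, against 6.79% and 9.17% of all genes, and 45 lay above the control (median 0.13). Under arch marker scaling 31 of the 76 were 2-fold higher and 1 lower (median 0.90). That scaling put 3105 of 11391 genes higher and 449 lower, with a median of 0.60 over all genes. Of 27 glycolysis genes, 10 (37.0%) were higher, against 6.79% of all genes, and 0 lower, with a median of 0.81. Among the 21 that reach 1 RPM in the other 3 libraries 6 were higher, against 435 of 10702 genes in all. The muscle enolase gene eno3 was at 50.3 RPM in the library labelled UAS:Nr2f5, 6.93 and 7.32 RPM in the mutants and 15.2 RPM in the control, 3.31-fold higher (2.91 to 3.76), and the pyruvate kinase gene pkmb at 22.7 RPM, against 0.0287 and 0 RPM in the mutants and 2.304 RPM in the control. Of these, pkmb passed the filter through the library labelled UAS:Nr2f5. The heat shock and unfolded protein list was mixed, with 5 of 31 (16.1%) higher and 1 lower, but 17 below the control and a median of −0.03. It summed to 2124 RPM in the library labelled UAS:Nr2f5 and 2462 RPM in the control. Counting only genes that reach 1 RPM in the other 3 libraries, 4 of 29 were higher and 1 lower, with a median of −0.15. The inducible chaperone gene hsp70.1 was at 11.4 RPM, against 5.12 and 4.03 RPM in the mutants and 2.47 RPM in the control, 4.61-fold higher (3.43 to 6.29), and ddit3, a factor of the unfolded protein response, at 16.1 RPM, against 8.19 and 10.4 RPM in the mutants and 6.58 RPM in the control. For both, the control was the lowest of the 4 libraries. Of 35 immediate early genes, 3 (8.57%) were higher, near the share of all genes, with nr4a1, itself an orphan nuclear receptor, at 28.3 RPM against 7.59 and 7.89 RPM in the mutants and 12.2 RPM in the control.

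In the values as deposited, genes of DNA replication and cilia held more 2-fold lower members than the 9.17% of all genes, and those of chromatin did not. These lists were not tested against genes of their own levels. Of 48 replication genes, 9 (18.8%) were 2-fold lower and 0 higher, 43 were below the control, and the median was −0.59. tyms, the enzyme that makes thymidylate, was at 1.38 RPM in the library labelled UAS:Nr2f5, 7.47 and 8.07 RPM in the mutants and 8.48 RPM in the control, 6.14-fold lower (3.59 to 11.4). The origin recognition gene orc6 was at 0.592 RPM, against 3.48 and 4.15 RPM in the mutants and 4.94 RPM in the control. Of 58 mitosis genes, 7 (12.1%) were lower and 0 higher, among them the condensin gene ncaph2, at 0.494 RPM against 8.65 and 9.70 RPM in the mutants and 6.45 RPM in the control. In these 3 genes the other libraries lay close together, and their levels in the library labelled UAS:Nr2f5 rest on few reads. Under arch marker scaling the median of the replication list was 0.18 and that of the mitosis list 0.51, beside 0.60 over all genes. Both medians then lay above 0 but still under that of all genes, as in the deposited values.

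Of 37 cilium genes, 8 (21.6%) were lower and 1 higher, with a median of −0.34. The 1 higher gene passed the filter through the library labelled UAS:Nr2f5. Among the 36 that reach 1 RPM in the other 3 libraries, 8 were lower and 0 higher. Under arch marker scaling 3 of the 37 were lower and 7 higher, with a median of 0.25. That scaling put 449 of 11391 genes lower and 3105 higher, with a median of 0.60 over all genes. The intraflagellar transport gene ift172 was at 3.16 RPM in the library labelled UAS:Nr2f5, 9.40 and 13.2 RPM in the mutants and 10.7 RPM in the control, 3.37-fold lower (2.34 to 5.01). Of 125 chromatin regulators, 10 (8%) were lower and 1 higher, a share near that of all genes, with a median of −0.36, or 0.44 under arch marker scaling. The chromatin remodeller gene chd1 was at 12.5 RPM, against 41.0 and 39.1 RPM in the mutants and 34.6 RPM in the control, 2.76-fold lower (2.29 to 3.34), and the DNA methyltransferase gene dnmt3aa at 2.07 RPM, against 8.57 and 5.69 RPM in the mutants and 8.92 RPM in the control. For both genes the other 3 libraries lay well above the library labelled UAS:Nr2f5. Cytosolic ribosomal protein genes showed 0 of 76 at 2-fold, against 16% of all genes, and a median of −0.06. It was 0.06, 0.12 and 0.77 with early neural crest, median-ratio and arch marker scaling. The last of these put 6 of the 76 at least 2-fold higher, beside 3105 of 11391 genes in all.

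Some of the genes furthest below the control or below all of the other 3 libraries belonged to none of the lists. The bHLH-PAS factor gene sim2 was at 1.18 RPM in the library labelled UAS:Nr2f5, 13.6 and 11.8 RPM in the mutants and 10.02 RPM in the control, 8.46-fold lower (4.77 to 16.5). The septin gene sept8a was at 0.889 RPM, against 9.89 and 15.3 RPM in the mutants and 8.88 RPM in the control. The nucleolar genes nop2 and bop1, which act in making ribosomes, were at 1.38 and 1.58 RPM, against 9.60 and 11.7 RPM in mutant 1, 8.60 and 13.9 RPM in mutant 2 and 9.65 and 8.78 RPM in the control. In each of these the other 3 libraries lay together at several times the level of the library labelled UAS:Nr2f5. Of the 10 genes furthest below all 3, taken from genes averaging 5 RPM or more, 4 were Dlx genes, namely dlx4a, dlx4b, dlx5a and dlx6a.

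Other nuclear receptor genes were mixed. Of 24 outside the Nr2f and retinoic acid receptor groups, 4 were higher and 1 lower, against 6.79% and 9.17% of all genes. The median was 0.03, and among the 22 that reach 1 RPM in the other 3 libraries 3 were higher, against 435 of 10702 genes in all. The clock-related receptor gene nr1d2a was at 4.54 RPM in the library labelled UAS:Nr2f5, 1.18 and 1.23 RPM in the mutants and 1.07 RPM in the control, 4.25-fold higher (2.65 to 6.90). The thyroid hormone receptor gene thraa was at 2.86 RPM, against 0.834 and 1.50 RPM in the mutants and 0.701 RPM in the control. Of 15 Hox genes that passed the filter, 0 were higher and 2 (13.3%) lower, against the same shares of all genes. hoxa3a, expressed in arches behind the second, was at 3.46 RPM, against 2.98 and 2.47 RPM in the mutants and 8.25 RPM in the control, so that here the library labelled UAS:Nr2f5 lay with the mutants and the control was the high one.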

How the data were processed

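RNA-seq values of 4 libraries were used as deposited by the authors. The submitters' processing notes name TopHat2, Partek and the GRCz10 build; versions, roles and the annotation are not given in the sources used here. The authors' deposited table calls its values TPM, but low values in each library are mostly multiples of 1 step whatever the gene (88.4% to 94.0% of values within 0.02 read), so they were taken as RPM, an assumed scale, and the steps imply 10127924 reads in total for UAS:Nr2f5, 34787209 and 22677736 for the mutants and 29943424 for the control. The columns sum to 14.8% to 15.8% of the full scale. No sample column was left out.

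Differences were taken on log2(RPM + 1), for genes averaging 1 RPM or more across all 4 libraries; at least 2-fold counts as apart. Intervals are exact Clopper-Pearson intervals on rounded implied reads, and a count of 0 was set to 3 reads for fold bounds. The libraries were amplified by PCR, and the labels name no molecular identifiers, so reads are not independent molecules, and intervals and bounds cover counting error only. Rows with the same symbol were summed for lists and named genes. The 51 gene lists hold 1803 entries, of which 1778 were found. The comparison and the lists were chosen with earlier results of these data known. Named genes are drawn from the Nr2f, Dlx, jaw and Endothelin lists, the 15 largest differences each way and the 10 genes furthest outside the other 3 libraries each way, both among genes averaging 5 RPM or more (across the 2 and the 4 libraries), up to 4 members of every other list, and the cell type markers; he1a, pigq, eva1ba, crygm2d3 and THEM6 were named after their values were seen. limma 3.58.1 in R 4.3.3 served as an alternative, with 1 residual degree of freedom, which the mutant pair supplies. Scripts ran on Python 3.11.15, numpy 2.4.6, pandas 2.3.3 and scipy 1.17.1, and were tested on simulated data. Some genes are not reported here.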

Additional observations from a re-analysis of the deposited data

How the results depend on the processing

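The alternatives were pseudocounts of 0.1 and 5, other filters, median-ratio and early neural crest scaling, thinning of the control, a counting interval, limma, leaving out either mutant, and arch marker scaling (chosen after seeing the data). Genes 2-fold higher and lower than the control in the UAS:Nr2f5 library numbered 1243 and 1679 with a pseudocount of 0.1, 149 and 63 with 5, 173 and 311 at a mean of at least 5 RPM, and 3105 and 449 with arch marker scaling, and 1289 were higher with no filter. limma, borrowing the spread of the mutant pair, called 0 higher and 0 lower at an adjusted p of 0.05 (smallest adjusted p = 0.0862), with 2411 genes at an unadjusted p under 0.05. The limma p-values hold no spread of the UAS:Nr2f5 or control group, so neither limma count is evidence for or against a difference. Genes above and below each of the other 3 libraries numbered 2694 and 186 with arch marker scaling, and 351 were below with early neural crest scaling. The mutant pair differed in 1381 genes with a pseudocount of 0.1 and in 12 with 5. The Dlx median was −2.94 and −1.19 with these pseudocounts and −1.92 with arch marker scaling. The other lower jaw regulators had a median of −0.95 with a pseudocount of 0.1, −0.54 with median-ratio and −0.12 with arch marker scaling, and the upper jaw genes 0.11 and 0.73 with these scalings. The cause of these moves was not tested. Of 157 named genes at least 2-fold apart, 64 were still 2-fold apart with a pseudocount of 5 and 121 with arch marker scaling. A pseudocount cannot turn the sign of a difference. The largest multiplier, 1.79, is too small to turn one of 2-fold, so the unchanged signs of these genes are no test. Of 51 list medians, 27 changed sign with arch marker scaling, 11 with median-ratio and 7 with early neural crest scaling. The median of all genes itself went from −0.11 to 0.60, 0.03 and −0.02 with these scalings. The 5 medians beyond 2-fold could not change sign under these scalings. Depth limits genes near the 0.296 RPM that 3 reads are worth in the library labelled UAS:Nr2f5. No paired analysis was possible because the groups compared have 1 library each.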
